A study of Mus musculus with 90 samples.

Results

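Tumours that kept growing under an antibody against PD-L1 were set against tumours given a control antibody, in the second of the biomarker studies of this series, called study 3. The samples were taken by their labels: 9 study 3 non-responder tumours and 8 study 3 IgG tumours, 17 of the 90 arrays. All were subcutaneous melanoma allografts labelled Hgftg;Cdk4R24C/R24C, that is with an Hgf transgene and both copies of Cdk4 carrying R24C, in strain B6.cBrd. The non-responder mice received anti-mouse PD-L1 (mIgG1 with D265A, clone 80) at 10 mg/kg, and the IgG mice a control IgG of the same format (NIP228) at 10 mg/kg. D265A is a change in the Fc part that limits binding to Fc receptors. Responders, which shrank by 5% or more, were taken after 2 to 12 doses, and non-responders, which progressed, were taken at matching times. The labels give neither the age nor the sex of the mice, nor the promoter of the Hgf transgene, nor the number of donor tumours behind the allografts. Beside these groups, 14 non-responder and 14 IgG tumours of study 2 and 10 responder and 4 PBS tumours of study 3 (PBS at 10 ml/kg) are used below.

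PD-L1, encoded by Cd274, is a surface ligand that tumour cells and myeloid cells raise under interferon gamma. It restrains T cells through the receptor PD-1, encoded by Pdcd1, and blocking it can free cytotoxic T cells that already recognise the tumour. In melanoma, tumours that regress under such blockade are known for T cell, cytotoxic and interferon gamma transcripts, while tumours that grow through it often lack them or escape recognition. The comparison asks what the transcriptome of a tumour that grew despite the antibody looks like beside one that never received it. The non-responders were sorted by outcome, while the IgG tumours carry no outcome label. Receipt of the antibody and selection by outcome therefore cannot be told apart in it.

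The labelled tumour type was checked on pigment genes, which were bright in both groups: the 17 measured melanocyte differentiation genes had a mean of 9.38 to 9.82 on the log2 scale in the non-responders and 9.46 to 9.77 in the IgG tumours. Animal numbers in the labels fall into separate blocks for anti-PD-L1, IgG and PBS mice, so cohort and treatment cannot be told apart in study 3. Xist, the RNA of the inactive X chromosome, was at 8.62 to 9.98 in the non-responders and 8.17 to 10.32 in the IgG tumours, but at 6.41 to 6.87 in the PBS tumours. Eif2s3y, a gene of the Y chromosome, was at 3.10 to 3.62, 3.07 to 3.98 and 4.78 to 5.92 in the same groups. These genes, named after their values were seen, separated the PBS tumours from both other groups. RNA quality was read as the level at the 3 prime end minus that at the 5 prime end of the Actb and Gapdh controls, averaged. This 3 prime minus 5 prime difference ran from 0.03 to 0.54 in the non-responders, from -0.07 to 0.41 in the IgG tumours and to 5.20 in PBS replicate 2.

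Few genes differed between the groups, and by little. Of 18194 genes tested, 126 (0.693%) passed an adjusted p of 0.05 in limma's test with Benjamini-Hochberg adjustment over all genes; 122 (0.671%) were higher and 4 (0.022%) were lower in the non-responders. The rises lay between 0.21 and 0.63 on the log2 scale, 1.16-fold to 1.55-fold, with a median of 0.34. No called gene reached a 2-fold difference, whereas 20 genes that did not pass did, 10 in each direction. This count was unstable. Among the 17 tumours left out in turn it ran from 7 without non-responder replicate 3 to 426 without non-responder replicate 4, and it was 1 when only the 17 arrays were fitted. With quantile normalization within study it was 7, of which 5 were higher.

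The risen genes were dim. Their median level over all arrays was 5.30 on the log2 scale, against 7.01 for all genes, and 108 of the 122 lay in the 4 dimmest of 10 equal bins of level, at a mean of 6.15 or less. In bins 2, 3 and 4, counted from the dimmest, the median log2 fold change over all genes was 0.12, 0.12 and 0.11, against -0.06 in bins 7 and 8. The mean of the dim genes that were not called was 4.60 to 4.84 per tumour in the non-responders and 4.51 to 4.66 in the IgG tumours, so this background level moved with the groups; its part in the result was not tested beyond the alternatives below. The mean of the 122 risen genes was 5.25 to 5.78 in the non-responders and 5.00 to 5.12 in the IgG tumours. Replicate 3 had the highest value of both means and of the 3 prime minus 5 prime difference (5.78, 4.84 and 0.54), and replicate 2 stood next among the non-responders in the dim-gene mean and the 3 prime measure (4.77 and 0.31). In the mean of the risen genes replicate 7 stood next (5.59, against 5.52 in replicate 2), with the lowest 3 prime measure of the non-responders (0.03). With non-responder replicates 2 and 3 and IgG replicate 7, whose 3 prime minus 5 prime difference was 0.41, left out, 1 gene passed. With the 3 prime minus 5 prime difference as a covariate and no tumour left out, 142 genes passed. With the mean of all genes of the 4 dimmest bins, called ones included, as a covariate 1 gene passed. With arrays centred on their medians 8 passed.

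**Figure D1:**
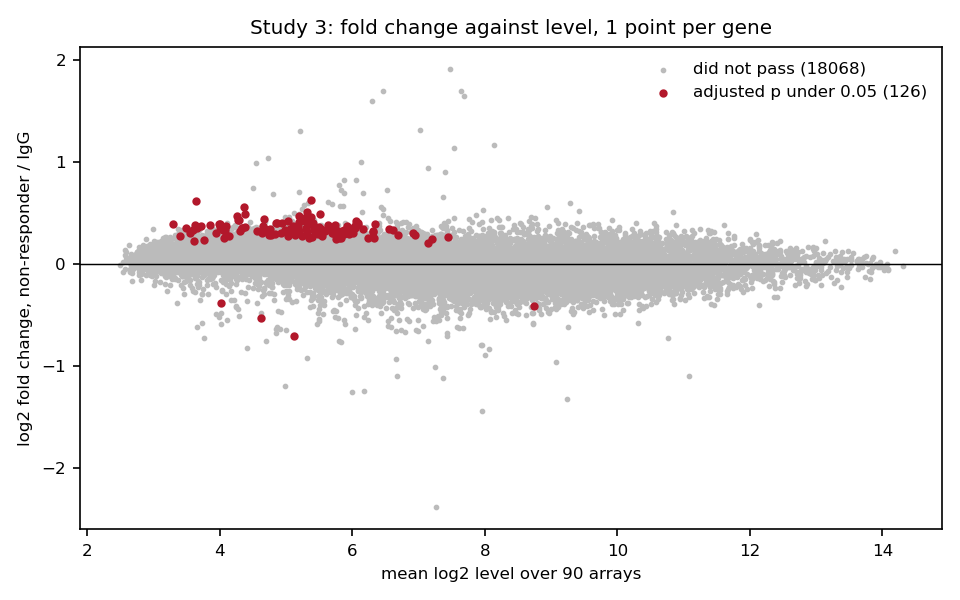
Log2 fold change of non-responder over IgG tumours of study 3 against the mean log2 level over 90 arrays, 1 point per gene. The 126 genes past an adjusted p of 0.05 (red) lie mostly at dim levels and above 0, and the points farthest from 0 did not pass.

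Dleu7 was the gene that passed in each of those fits. It is named in humans for a region deleted in lymphocytic leukaemia, lies on chromosome 14 and had a single probe set. Its log2 level was 3.80 at the lowest, 4.22 at the median and 4.40 at the highest in the non-responders, against 3.37, 3.59 and 3.77 in the IgG tumours. All 9 non-responders lay above all 8 IgG tumours. The log2 fold change was 0.62 ± 0.09 (SE), 1.54-fold (95% interval 1.35 to 1.75), with a limma adjusted p of 5.22e-05. It passed in 32 of the 33 alternatives that could hold it, and a filter on genes with a mean under 6 removed it. The levels are close to the bottom of the array's range, which began at 2.19.

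The exception was the comparison with PBS. Dleu7 averaged 4.20 ± 0.19 in the non-responders (SD, n = 9), 3.58 ± 0.14 in the IgG tumours (n = 8) and 4.24 ± 0.38 in the PBS tumours (n = 4). In IgG over PBS tumours the log2 fold change was -0.66 ± 0.12 (limma adjusted p = 0.00158), and in non-responders over PBS tumours it was -0.04 ± 0.12 (adjusted p = 0.974); these comparisons share their tumours with the main one. The 10 responders of study 3 averaged 3.73 ± 0.16, and study 2 averaged 3.57 ± 0.25 in non-responders and 3.53 ± 0.14 in IgG tumours (n = 14 each). The responders and both study 2 groups averaged nearer to the IgG than to the non-responder tumours of study 3.

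Ccnj, which encodes a cyclin of the J type, had the largest fall among called genes. It was at 4.08, 5.18 and 5.73 (lowest, median and highest) in the non-responders and at 5.41, 5.72 and 6.00 in the IgG tumours, with 7 of the 9 non-responders below the lowest IgG tumour. The log2 fold change was -0.70 ± 0.16 (SE; limma adjusted p = 0.0235). Ccnj varied more among the non-responders (SD 0.55) than among the IgG tumours (SD 0.18), and the PBS tumours spread over both, from 4.28 to 5.79. It passed in 19 of 33 alternatives.

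Promoters are printed for 3 genes on which these results turn, to set the most stable rise and the largest fall beside Prap1, a rise with a promoter poor in CpG, the dinucleotide that marks broadly used promoters. Sequences are RefSeq's (GRCm38.p6), 250 bases before to 50 after the annotated start, 5′ to 3′ on the gene's strand, with every CpG in capitals. Dleu7 lies at chr14:62292930-62293229 (minus strand, 19 CpG), Ccnj at chr19:40831029-40831328 (plus strand, 40 CpG) and Prap1 at chr7:140093146-140093445 (plus strand, 4 CpG).
Dleu7: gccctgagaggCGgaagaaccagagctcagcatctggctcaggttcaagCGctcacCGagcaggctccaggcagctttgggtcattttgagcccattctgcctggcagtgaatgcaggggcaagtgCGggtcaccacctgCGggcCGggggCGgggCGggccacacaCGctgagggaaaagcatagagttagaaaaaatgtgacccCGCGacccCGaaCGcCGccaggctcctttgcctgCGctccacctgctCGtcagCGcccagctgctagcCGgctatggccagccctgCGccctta
Ccnj: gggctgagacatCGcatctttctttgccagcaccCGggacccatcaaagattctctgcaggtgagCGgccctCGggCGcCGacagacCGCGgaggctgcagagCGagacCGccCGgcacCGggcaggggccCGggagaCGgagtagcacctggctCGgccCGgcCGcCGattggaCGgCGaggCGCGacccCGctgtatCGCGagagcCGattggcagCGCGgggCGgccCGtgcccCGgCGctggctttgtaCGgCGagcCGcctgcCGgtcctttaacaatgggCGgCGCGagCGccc
Prap1: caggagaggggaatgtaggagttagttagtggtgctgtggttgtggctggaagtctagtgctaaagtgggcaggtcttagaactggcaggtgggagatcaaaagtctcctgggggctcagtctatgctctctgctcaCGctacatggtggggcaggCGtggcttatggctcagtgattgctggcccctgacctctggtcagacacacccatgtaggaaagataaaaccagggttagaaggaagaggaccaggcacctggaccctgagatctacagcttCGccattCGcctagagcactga
Of the risen genes 104 matched a promoter in the table, and their median was 6 CpG in 300 bases, against 7 for the genes of the 4 dimmest bins and 17 over all 14453 matched genes. CpG was counted as the letters CG, which read the same on both strands.

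The largest rises were spread over genes of many roles. Prap1, a secreted proline-rich protein of gut epithelium, was at 5.51, 5.96 and 6.43 in the non-responders and 5.19, 5.52 and 5.85 in the IgG tumours, with 7 of 9 non-responders above the highest IgG tumour; its log2 fold change was 0.49 ± 0.10 (limma adjusted p = 0.00818). Mapk15, an atypical MAP kinase, was at 5.15, 5.47 and 6.38 against 4.93, 5.04 and 5.38 in the IgG tumours, and rose by 0.51 ± 0.10 (limma adjusted p = 0.00865). Apoh, a plasma apolipoprotein made in liver, had the largest value of the rises, 0.63 ± 0.17 (adjusted p = 0.0452). In Apoh 4 of 9 non-responders lay above the highest IgG tumour, and it passed in 10 of 33 alternatives.

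Others among the 15 largest rises, which ranged from 0.43 to 0.63, were Akr1c21, a steroid dehydrogenase, Muc1, an epithelial mucin, and Guca2a, the gut peptide guanylin. Clec4g, a lectin of liver sinusoids, Otop2, a proton channel, Mak, a kinase of male germ cells, and Uroc1, an enzyme of histidine breakdown, were also among them. The non-responders did not overlap the IgG tumours in 12 of all genes (0.066%), 11 wholly above (0.0605%) and 1 wholly below (0.0055%), and 6 of them were called. The called ones comprise Dleu7, Meltf, an iron-binding protein first found on melanoma (0.40 ± 0.07), and Asgr1, a liver receptor for glycoproteins (0.38 ± 0.08). They also comprise Masp1, a protease of the lectin complement pathway (0.39 ± 0.09), Ptcra, the pre-T cell receptor alpha chain (0.41 ± 0.10), and the unnamed 9930021J03Rik (0.39 ± 0.09). These were named after their values were seen. Cdh10, a cadherin, was the gene that lay wholly below, at 7.10 to 7.62 in the non-responders and 7.66 to 7.86 in the IgG tumours. Its log2 fold change of -0.33 ± 0.35 did not pass (limma adjusted p = 0.732). That SE rests on a spread shared by all 12 groups, so it does not measure the spread within these tumours. Cdh10 did not pass in any of 34 alternatives either, where its smallest limma adjusted p was 0.29.

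The remaining falls were 4933407K13Rik (-0.53 ± 0.14), Ppp2r5e (-0.41 ± 0.10) and B130055M24Rik (-0.38 ± 0.09). Ppp2r5e, a regulatory subunit of the phosphatase PP2A, was at 7.90, 8.52 and 8.80 in the non-responders and 8.67, 8.96 and 9.18 in the IgG tumours. Its 5 probe sets disagreed, since 2 passed and the range ran from -0.51 to 0.10. The next 6 genes by p in this direction did not pass, with limma adjusted p from 0.0521 to 0.0646. Among the 126 called genes 37 had 52 further probe sets; 46 of these had the sign of the called one and 2 passed with it.

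**Figure D2:**
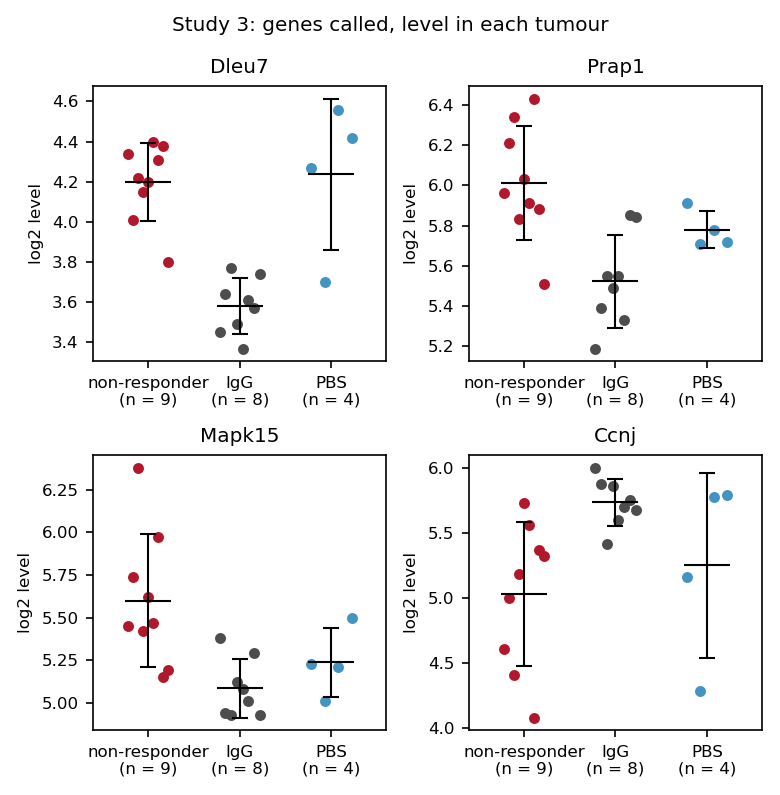
Log2 level of Dleu7, Prap1, Mapk15 and Ccnj in each study 3 tumour (points), with the mean and SD (bars), in non-responder, IgG and PBS tumours. Dleu7 separates the 9 non-responders from the 8 IgG tumours without overlap, and 3 of the 4 PBS tumours sit with the non-responders.

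The T cell and cytotoxic lists held no called gene, and the groups overlapped in the members shown. None of the 14 measured T cell genes and none of the 15 cytotoxic genes passed, and no member of any of the 41 gene lists passed. With 0.693% of all genes called, a list of 14 or 15 genes would mostly hold no called gene, so a count of 0 in a single list says little. The lists hold 508 measured genes, of which 26 (5.12%) had an unadjusted p under 0.05, against 14.6% of all genes. Of the 26, 15 were higher and 11 lower, against 2173 and 481 over all genes. The 2 sets were not matched for level, with which the fold change moved, so their shares cannot be compared directly. Gzmb, a granule protease of killer cells, was at 7.50, 8.92 and 9.67 in the non-responders and 6.73, 8.0 and 9.53 in the IgG tumours. The groups overlapped over nearly their whole range, and the log2 fold change of 0.56 had a 95% interval from -0.49 to 1.61. Cd8a, the co-receptor of killer T cells, was at 5.49, 6.19 and 6.43 against 4.89, 5.99 and 6.46 in the IgG tumours (0.18, interval -0.57 to 0.94). Ifng, the cytokine itself, was at 4.03, 5.16 and 6.52 against 3.91, 5.20 and 6.28 in the IgG tumours (0.13, interval -0.73 to 0.99). In each of these genes the differences within a group were larger than the difference between groups.

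The list means show the same per tumour. The cytotoxic mean ran from 5.94 through a median of 6.89 to 7.42 in the non-responders and from 5.94 through 6.54 to 7.29 in the IgG tumours. In the whole tumours measured here, fewer cells of a type and less RNA per cell cannot be told apart. Cd3d, of the T cell receptor complex, had a log2 fold change of 0.34 ± 0.47, and Cd4, the helper co-receptor, of 0.02 ± 0.15. Zap70, a kinase behind the T cell receptor, came nearest to passing in the T cell list, at 0.25 ± 0.07 (limma adjusted p = 0.0614). Its 3 probe sets gave 0.03 to 0.25. Gzma and Gzmk, further granzymes, had values of 0.46 ± 0.41 and 0.38 ± 0.44. Gzmm, a granzyme of natural killer cells that was in none of the lists, was called, at 0.34 ± 0.08 (limma adjusted p = 0.0248), and is named after its value was seen. Klrd1, a receptor of natural killer cells, was at 0.33 ± 0.53, and Ptprc, the pan-leukocyte marker CD45, at 0.04 ± 0.41.

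The target of the antibody and its partners did not pass either. Cd274 was at 7.98, 8.12 and 8.53 in the non-responders and 7.96, 8.24 and 8.64 in the IgG tumours, with a log2 fold change of -0.08 (95% interval -0.49 to 0.33). Pdcd1 was at 5.13, 5.47 and 6.05 against 4.68, 5.36 and 6.06 in the IgG tumours (0.19, interval -0.53 to 0.91), and Pdcd1lg2, the other ligand of PD-1, had 0.06 ± 0.28. All 12 measured checkpoint and exhaustion genes failed to pass. Examples are the inhibitory receptors Lag3 (0.36 ± 0.29), Havcr2 (0.38 ± 0.35) and Ctla4 (0.24 ± 0.23). In Lag3, 6 of 9 non-responders lay above the highest IgG tumour. Of the 8 regulatory T cell genes, Foxp3, their defining transcription factor, had 0.12 ± 0.09, and Il2ra, the interleukin 2 receptor alpha chain, 0.21 ± 0.08 (limma adjusted p = 0.201). The list median was 0.17, with 7 of 8 above 0, and Ikzf2 of the same list had -0.24 ± 0.15.

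**Figure D3:**
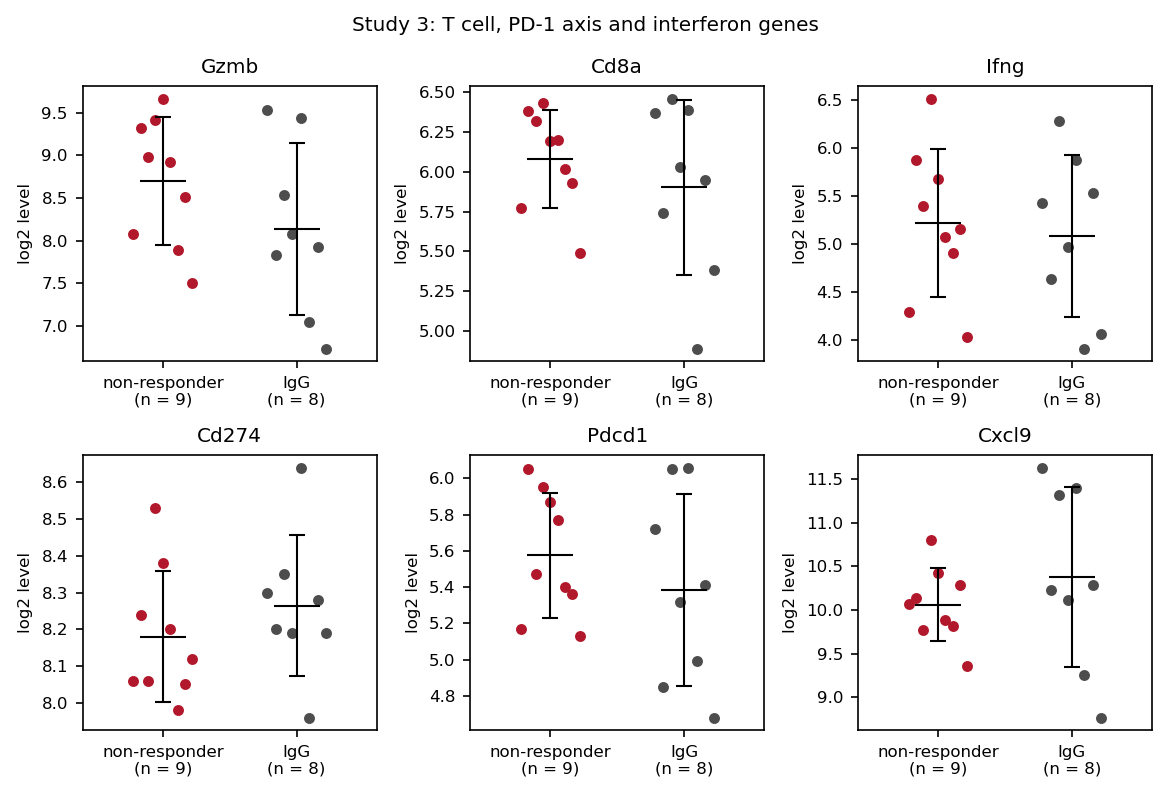
Log2 level of Gzmb, Cd8a, Ifng, Cd274, Pdcd1 and Cxcl9 in each study 3 tumour (points), with the mean and SD (bars), in 9 non-responder and 8 IgG tumours. The groups overlap in all 6 genes, and the IgG tumours spread more widely in Cxcl9 (SD 0.42 in the non-responders and 1.03 in the IgG tumours).

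Interferon gamma response and MHC genes differed more in spread than in level, a description with no test. The 18 type I interferon stimulated genes did not, with a mean of 9.63 ± 0.16 in the non-responders and 9.49 ± 0.22 in the IgG tumours (SD, n = 9 and 8), and none passed. The mean of the 16 interferon gamma response genes was 8.99, 9.41 and 9.73 in the non-responders and 8.60, 9.35 and 10.00 in the IgG tumours, with SDs of 0.22 and 0.54. Cxcl9, a chemokine that draws T cells, was at 9.36, 10.07 and 10.80 in the non-responders and 8.77, 10.26 and 11.63 in the IgG tumours (-0.31, 95% interval -1.24 to 0.61). The 9 MHC class II genes had a mean of 8.07, 8.84 and 9.24 against 8.05, 8.83 and 9.91 in the IgG tumours, and 3 IgG tumours, replicates 1, 3 and 5, exceeded the highest non-responder in this mean. H2-Aa and H2-Ab1, class II chains, had log2 fold changes of -0.22 ± 0.46 and -0.21 ± 0.44. B2m, the shared chain of class I, had -0.07 ± 0.05 and H2-D1, a class I heavy chain, -0.12 ± 0.10.

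Ido1, a tryptophan-degrading enzyme, and Nos2, the inducible nitric oxide synthase, had -0.26 ± 0.30 and 0.21 ± 0.11. Of 18 type I interferon genes none passed, and the list median was 0.19, against 0.04 over all genes. Ifit1, an antiviral RNA-binding protein, was at 9.94, 10.22 and 10.84 in the non-responders and 9.57, 9.91 and 10.15 in the IgG tumours, and 6 of 9 non-responders lay above the highest IgG tumour. Its value of 0.41 ± 0.18 did not pass (limma adjusted p = 0.253), nor did that of Mx2, an antiviral GTPase (0.30 ± 0.13).

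Among chemokines, Cxcl1, which attracts neutrophils, came near the threshold at 0.43 ± 0.12 (limma adjusted p = 0.0553). It was at 8.07, 8.31 and 9.05 in the non-responders and 7.71, 8.02 and 8.38 in the IgG tumours, and its 3 probe sets gave 0.34 to 0.44. Ccl7, a monocyte chemokine, had 0.61 ± 0.35, and Cx3cr1, the fractalkine receptor, -0.34 ± 0.14. The median of the 14 chemokine genes was 0.23. Macrophage genes showed no call among 15, with Apoe, a lipid carrier, at -0.35 ± 0.32 and Msr1, a scavenger receptor, at 0.26 ± 0.31. The 13 genes of alternatively activated macrophages, none called, had a median of 0.13, with 8 above 0. They ran from Lyve1 at -0.40 ± 0.73 to Chil3 at 0.41 ± 0.44. The neutrophil mean was 5.44, 5.80 and 7.42 in the non-responders and 5.52, 5.91 and 6.26 in the IgG tumours; the highest value belonged to non-responder replicate 2, where Cxcl2, another neutrophil chemokine, was at 10.09. No member of the fibroblast, endothelial or pericyte lists passed. The 17 fibroblast and extracellular matrix genes had a median log2 fold change of 0.06, with 10 above 0, and the 14 endothelial genes had -0.06, with 5 above 0. Members with negative values were Fn1, fibronectin (-0.21 ± 0.26), Acta2, smooth muscle actin (-0.30 ± 0.32), and Cldn5, a tight junction protein of endothelium (-0.29 ± 0.32).

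No member of the melanocyte or dedifferentiated melanoma lists passed, while Meltf, in neither list, was called, as given above. The median log2 fold change of the 17 melanocyte genes was -0.02, with Dct, a melanin synthesis enzyme, at 14.04 to 14.23 in the non-responders and 14.06 to 14.28 in the IgG tumours. Mlana, a melanosome antigen, had 0.24 ± 0.50, Pmel, the melanosome fibril protein, -0.09 ± 0.52, and Tyr, tyrosinase, whose probe set was dim, 0.03 ± 0.08. The engineered drivers did not pass, and the groups overlapped: Hgf had -0.19 ± 0.44, its receptor Met -0.08 ± 0.31 and Cdk4 0.04 ± 0.16. These SEs rest on a spread shared by all groups of the fit, so they do not measure the spread within these tumours. Met, for example, was at 12.22 to 12.62 in the non-responders and 12.42 to 12.75 in the IgG tumours. Mki67, a proliferation marker, was at 9.87, 10.40 and 10.94 in the non-responders and 10.08, 10.59 and 11.17 in the IgG tumours (-0.19, 95% interval -0.63 to 0.24). The 22 cell cycle genes had a median of -0.06, with Plk1, a mitotic kinase, at -0.25 ± 0.20.

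Rb1, the brake on which Cdk4 acts, had -0.34 ± 0.15 and Ccnd1, cyclin D1, -0.29 ± 0.18, neither past the threshold. Egfr, listed with dedifferentiated melanoma, had 0.33 ± 0.10 (limma adjusted p = 0.0655), with 6 of its 7 probe sets above 0 and a range from -0.29 to 0.33. Znrf3, which removes Wnt receptors, had -0.68 ± 0.21 (limma adjusted p = 0.0879), but its other probe set gave 0.23. Krt1, a keratin of epidermis, had 0.27 ± 0.07 (limma adjusted p = 0.0525). In the unfolded protein response list Chac1 and Trib3, targets of ATF4, had 0.44 ± 0.25 and 0.37 ± 0.22, and the list mean was 10.55, 10.78 and 10.87 in the non-responders and 10.50, 10.60 and 10.74 in the IgG tumours.

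The largest differences in size were in genes of muscle and fat, tissues that can lie beside a subcutaneous tumour, and none passed; whether such tissue was in the samples was not tested. Skeletal muscle genes had a median log2 fold change of 1.14 over 15 genes, none called. Their mean exceeded 7 in 4 of 9 non-responders (replicates 3, 7, 8 and 9, at 9.03, 9.32, 8.65 and 7.25) and in 1 of 8 IgG tumours (replicate 3, at 8.74). Tnnc2, a troponin of fast muscle, had the largest positive value of all genes, 1.92 ± 1.25, and Pvalb, parvalbumin, had 1.70 ± 1.06. The 8 adipocyte genes had a median log2 fold change of -0.56, none called. Adipoq, the fat cell hormone adiponectin, was at 4.57, 6.48 and 9.94 in the non-responders and 6.39, 9.13 and 11.46 in the IgG tumours, with 4 of 9 non-responders below the lowest IgG tumour.

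Its log2 fold change, -2.39 ± 0.98, was the largest in size of all genes and did not pass (limma adjusted p = 0.212). Retn, resistin, had -1.12 ± 0.49 and Cidec, a lipid droplet protein, -1.20 ± 0.58. The adipocyte mean exceeded 8 in 1 of 9 non-responders and in 4 of 8 IgG tumours. Jchain and Ighm, of antibody-secreting cells, had -1.01 ± 0.77 and -0.96 ± 0.64. Jchain was at 4.76, 6.62 and 9.50 in the non-responders and 5.66, 7.58 and 10.45 in the IgG tumours.

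**Figure D4:**
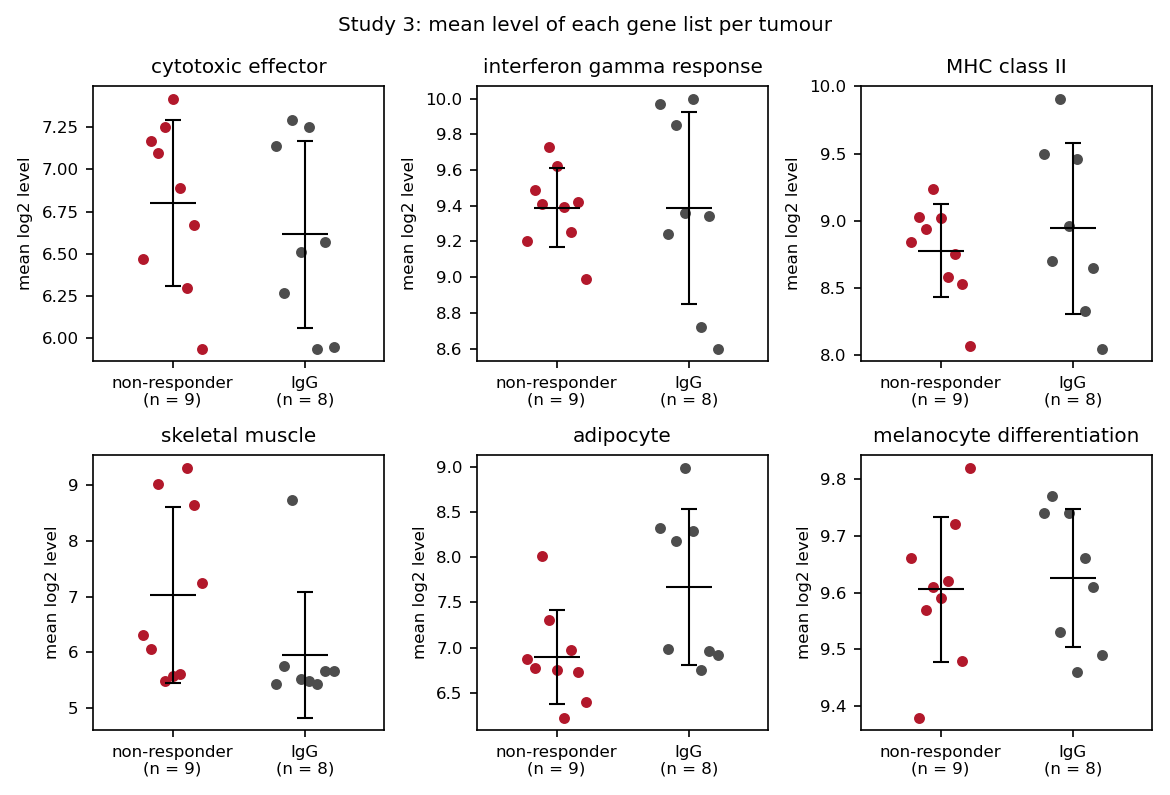
Mean log2 level of 6 gene lists in each study 3 tumour (points), with the mean and SD over tumours (bars), in 9 non-responder and 8 IgG tumours. Interferon gamma and MHC class II means spread more widely among the IgG tumours, and skeletal muscle exceeds 7 in 4 non-responders and 1 IgG tumour.

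Malat1, an abundant nuclear RNA, did not pass. It was at 7.91, 10.78 and 11.53 in the non-responders and at 10.57, 11.46 and 12.04 in the IgG tumours, with 4 of 9 non-responders below the lowest IgG tumour and a log2 fold change of -1.10 ± 0.39 (limma adjusted p = 0.135). All 7 of its probe sets were below 0. The splicing and RNA binding list mean was 10.58, 10.81 and 10.95 in the non-responders and 10.76, 10.98 and 11.21 in the IgG tumours. Within it Rbm25, a splicing factor, had -0.61 ± 0.24, and 0 of 17 members passed.

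Study 2 offers the same contrast in tumours that share no sample with study 3. There 0 of 18194 genes passed in limma's test (749 at an unadjusted p under 0.05), and gene-by-gene array weights gave 1. Of the 122 genes that rose in study 3, 34 (27.9%) had a value above 0 in study 2, against 46.8% of all genes, and their values there ran from -0.20 to 0.12 with a median of -0.03. All genes of the dim bins 2, 3 and 4 had medians of -0.03, -0.04 and -0.03 in study 2. In this median the risen genes did not stand apart from other dim genes. Of the 4 that fell, 2 were below 0 in study 2. Dleu7 had 0.05 ± 0.07 in study 2 and Ccnj 0.20 ± 0.13.

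The difference between the studies was tested as study 3 minus study 2. It passed for 37 genes (0.203%), 33 above 0 and 4 below, and 27 of them were among the 126 called in study 3. The difference contains the study 3 values by which the 126 were chosen, so this overlap is not separate evidence. The balance of directions depended on the setting: it was 1 above 0 and 2 below with quantile normalization within study, and 611 above and 331 below with array weights. Asgr1 had the smallest adjusted p, with a difference of 0.57 (limma adjusted p = 0.000941), from 0.38 in study 3 and -0.19 in study 2. The largest in size were Ccnj (-0.90, adjusted p = 0.0384), Gm11627 (0.68, adjusted p = 0.0439), Cxcl1 (0.62, adjusted p = 0.0481), Atl3, a shaper of endoplasmic reticulum tubules (-0.62, adjusted p = 0.0481), and Prap1 (0.59, adjusted p = 0.0209). Cxcl1 is the list member that differed between the studies, at 0.43 in study 3 and -0.19 in study 2. In study 2 the mean of the 122 genes was 4.99 to 5.35 in non-responders and 5.07 to 5.32 in IgG tumours, whereas those of study 3 did not overlap, by the choice of genes.

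**Figure D5:**
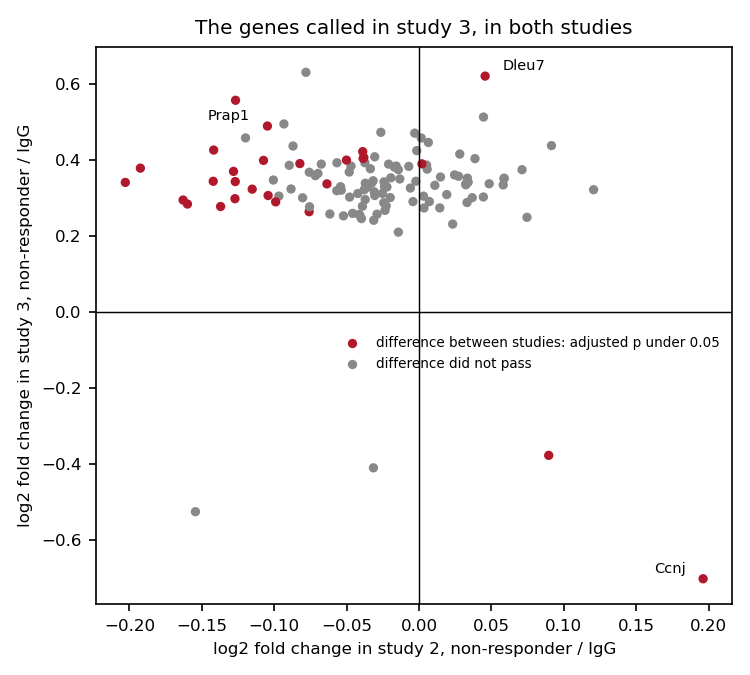
Log2 fold change of non-responder over IgG tumours in study 3 (vertical) against study 2 (horizontal) for the 126 genes called in study 3; red points passed the test of the difference between the studies. Values above 0 in study 3 fall on both sides of 0 in study 2, with 34 of 122 above.

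The control groups of study 3 also differed. IgG against PBS tumours gave 88 genes (0.484%), 56 higher and 32 lower, or 20 without PBS replicate 2, and among the 88 the differences in Xist (2.92) and Eif2s3y (-2.06) described above stood. Set against PBS in place of IgG, the non-responders gave 84 genes (0.462%), 28 higher and 56 lower. Of the 126 genes called against IgG, 0 were among them. The mean of the 122 risen genes was 5.22 to 5.35 in the PBS tumours, above the 5.00 to 5.12 of the IgG tumours. In the non-responders it was 5.25 to 5.78. These comparisons share tumours with the main one, and the 122 genes were chosen by their difference from IgG. The values are therefore not separate evidence, and the cause of the difference between the control groups was not tested.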

How the data were processed

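RNA from whole tumours (800 ng per array) was amplified, labelled with biotin and hybridised to 3 prime expression arrays of 45101 probe sets, per the labels' protocols. The authors deposited log2 values, from 2.19 to 14.84. RMA and limma are named, without versions, per the submitters' processing notes. It is not stated whether study 2 and study 3 arrays went through RMA jointly.

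The 34958 probe sets with 1 gene symbol were kept (932 with several and 9211 with none were left out), and each gene's brightest over 90 arrays stood for it. All 90 arrays were fitted with limma 3.58.1 in R 4.3.3 (12 group means, empirical Bayes, 2-sided tests, Benjamini-Hochberg over 18194 genes, threshold 0.05). The procedure was tested on simulated data. SE is limma's standard error and intervals are 95%. Both rest on a spread shared by all groups of the fit, so they do not measure the spread within the compared tumours. Arrays give no counts, so their number limits the precision. Each tumour has its own animal number.

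Members, gene lists and tests were chosen with earlier results of these data known. Named are the 15 largest called rises and falls (or, with fewer than 10 calls in a direction, the 10 smallest p), 3 members of each list, a fixed set and 5 genes of the difference between the studies, with some left out for length, and genes stated to be named after their values were seen. Gene list counts come from the fit over all genes, with no test of a list. Alternatives were other sets of arrays, prior variances, weights, probe set summaries, filters, scalings, covariates, controls and thresholds, and each of 17 tumours left out.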

Additional observations from a re-analysis of the deposited data

Results flagged for a closer look

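Tumours that stood far from the rest of their group were looked for with Dixon's test in 218 sets of values, and 21 passed its 95% limit, where chance gives about 1 in 20. Non-responder replicate 3 had the lowest Ppp2r5e (7.90, next 8.35) and the highest 9930021J03Rik (7.21, next 6.67), Cd4 (6.83, next 6.57), Retn (8.82, next 7.45) and Cidec (5.70, next 4.58). It is also the tumour with the highest 3 prime minus 5 prime difference of the group (0.54). Non-responder replicate 2 had the highest Cxcl2 (10.09, next 7.01), Jchain (9.50, next 6.98), neutrophil mean (7.42, next 6.29) and plasma cell mean (7.49, next 6.90). Lag3 was highest in non-responder replicate 7 (7.24, next 6.33), and Ccl7 was lowest in replicate 1 (8.25, next 9.48).

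Among the IgG tumours, replicate 3 had the highest Tnnc2 (10.78, next 6.34), Pvalb (10.28, next 6.28), Cx3cr1 (7.28, next 6.27), skeletal muscle mean (8.74, next 5.75) and plasma cell mean (7.93, next 7.08). Replicate 6 had the lowest Mlana (9.21, next 10.27) and Mx2 (6.74, next 7.06). Ido1 was highest in replicate 5 (6.31, next 5.04), and Gzmm was lowest in replicate 1 (5.78, next 6.03). Xist was highest in PBS replicate 2 (6.87, next 6.49), the tumour with the 3 prime minus 5 prime difference of 5.20.

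The change between non-responder and IgG tumours differed between study 3 and study 2 by limma's test (adjusted p under 0.05) for 14 of the genes named here. Many of these were named for their study 3 values, which the difference contains. The difference, study 3 minus study 2, was above 0 for Dleu7 (0.58), Prap1 (0.59), Mak (0.57), Gm11627 (0.68), Asgr1 (0.57), Meltf (0.45), Gzmm (0.49), Msx3 (0.46), Serpinf2 (0.45) and Cxcl1 (0.62). It was below 0 for Ccnj (-0.90), B130055M24Rik (-0.47), Rab11fip2 (-0.57) and Atl3 (-0.62). Cxcl1, Rab11fip2 and Atl3 did not pass within study 3.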

How the results depend on the processing

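The count of 126 genes moved by over 1.5 times in most settings. It was 1 with only the 17 arrays or only the 37 arrays of study 3, 443 with array weights, 391 with gene-by-gene weights (added after seeing the data), 256 with the mean of all probe sets, 3 without genes under a mean of 6 (Chst3, Msx3 and Serpinf2; fewer genes tested), 8 with median centring, 7 with quantile normalization within study (5 of them higher), 46 with PBS pooled with IgG (40 higher) and 10 at a threshold of 0.01. Higher genes made up 366 of the 443 and 330 of the 391. With the 3 prime covariate over all arrays it was 142 (136 higher), which kept 124 of the 126. Settings chosen after seeing the data gave 145 with PBS replicate 2 left out, which kept all 126. They gave 31 with the 3 prime covariate and that tumour left out. They gave 1 without the 3 tumours above 0.3 in the 3 prime measure and 1 with the dim-gene covariate. With each tumour left out the count ranged from 7 to 426. The tumours that moved it by over 1.5 times were non-responder replicates 2 (24), 3 (7), 4 (426), 5 (281), 6 (309), 7 (78) and 9 (392) and IgG replicates 1 (65), 2 (71), 3 (80), 5 (68), 6 (21), 7 (208) and 8 (254). The causes were not tested.

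The difference between the studies gave 942 genes with array weights, 811 with gene-by-gene weights, 126 with the mean of all probe sets, 0 without dim genes (1155 at an unadjusted p under 0.05), 1 with median centring, 3 with quantile normalization, 66 with the 3 prime covariate and 1 at 0.01, against 37. Study 2 gave 0 genes except 1 with gene-by-gene weights. IgG against PBS gave 11 with the 37 arrays and 20 without PBS replicate 2, against 88. Reversed values came with PBS in place of IgG, for Dleu7 (-0.04), Ptcra (-0.01), 4933407K13Rik (0.14) and Xist (2.82), counting values that passed in either fit. Of 180 genes followed, 84 changed sign in at least 1 alternative without passing in either fit, such as Ptprc in 11 of 34 and Cd4 in 7. List members passed in some settings, at most 3 per list (adipocyte, with array weights), among them Zap70 and Cxcl1 in 8 each. No paired analysis was possible because each tumour comes from its own animal and replicate numbers follow accession order only.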
